A study of Mus musculus with 6 samples.

Results

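The 10 genes described here, *Tnfrsf1a*, *Tnfrsf12a*, *Ripk1*, *Fadd*, *Casp8*, *Cflar*, *Ripk3*, *Mlkl*, *Tnfaip3* and *Birc3*, encode receptors, adaptors, proteases, kinases and ubiquitin-handling proteins that carry a TNF signal either to survival or to cell death. They were taken by their symbols from a deposited table of 17554 genes, in which all 10 were found, and all 10 had enough counts to be tested. The table holds bulk RNA-seq of the corneal epithelial layer of 3 control mice, given as WT in the labels, and 3 mutant mice, given as *Rela*-/-, all of strain C57BL/6 and 2 months old. The study's methods name the mutants as *Krt14-Cre; Rela* f/f, in which a Cre recombinase driven by the keratin 14 promoter removes the floxed part of *Rela* in corneal epithelium and in other epithelia that use this promoter, such as skin and conjunctiva. Whether control mice carried floxed alleles or Cre is not given in the sources used here.

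TNF bound to TNFR1 (*Tnfrsf1a*) assembles a membrane complex in which RIPK1 and the cIAP ubiquitin ligases lead to activation of NF-κB, whose RelA-containing dimers then induce survival and feedback genes. When that arm fails, RIPK1, FADD and caspase-8 form a cytosolic complex that starts apoptosis unless cFLIP (*Cflar*) restrains it, and when caspase-8 is inactive, RIPK3 phosphorylates MLKL, which permeabilizes the plasma membrane in necroptosis. *Tnfaip3* encodes the ubiquitin-editing protein that ends NF-κB signaling, and *Tnfaip3*, *Birc3* and *Cflar* are textbook NF-κB target genes.

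*Rela* itself had an FPKM (reads counted on a gene, scaled for the length of its transcript and the depth of its library) of 33.4 to 36.5 in control corneas against 4.93 to 5.72 in mutant corneas, so the labels and the measured transcript point the same way. Total expected counts per sample were 19492942 to 19733834. Corneal identity was checked on 10 markers, of which 7 did not pass the test. The cornea-specific keratin *Krt12* had an FPKM of 18871 to 21194 in control and 17005 to 19245 in mutant corneas. For *Pax6* it was 209 to 222 against 186 to 202. By FPKM, *Pax6*, *Tkt* and *Aldh3a1* were lower in every mutant sample than in any control sample, while *Krt14*, *Clu* and *Perp* were higher. *Krt12* overlapped by FPKM but not by counts, which were lower in mutant corneas. *Krt14*, whose promoter drives Cre, rose 9.98-fold (adjusted p = 1.1e-05) and *Clu* rose 2.35-fold. *Aldh3a1* fell by 0.25 on the log2 scale (adjusted p = 0.047, past in 3 of 14 alternative analyses and in 0 of the 6 with a sample left out). On the second principal component, with 11.6% of the variance, the mutant sample 1 lay at 24.2 and the mutant sample 3 at -20.7, against -1.25 to 5.25 for the control samples. In a bulk sample, fewer cells of a type and less RNA per cell cannot be told apart.

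Of the 10 genes, 4 rose in mutant corneas (*Ripk3*, *Tnfrsf12a*, *Mlkl* and *Tnfrsf1a*), 1 fell (*Tnfaip3*) and 5 did not pass the test (*Ripk1*, *Fadd*, *Casp8*, *Cflar* and *Birc3*). A gene passed at an adjusted p under 0.05 in the quasi-likelihood test of edgeR, with Benjamini-Hochberg adjustment over 12667 genes, and by this rule 7.82% of all genes tested rose and 5.42% fell. The median log2 fold change was 0.36 over the 10 genes and -0.0028 over all genes tested. The study's methods set thresholds of an adjusted p up to 0.001 with a change of 2-fold or more. They were applied here to the edgeR test, not to the authors' own test, so the calls are not those of the study. By them 1.37% of all genes tested were differentially expressed (1.31% higher and 0.0553% lower), and of the 10 genes *Ripk3* and *Tnfrsf12a* were. These 2 calls depended on the samples in the fit. Without the control sample 2, the control sample 3 or the mutant sample 2, none of the 10 genes met the stricter thresholds in edgeR. In those fits, with 2 samples left in a group, 36, 56 and 135 of all genes met them, against 173 in the main fit. The log2 fold changes there were 1.62, 1.98 and 1.87 for *Ripk3* and 1.28, 1.47 and 1.47 for *Tnfrsf12a*. The 5 genes that passed at 0.05 did so in each of the 14 alternative analyses. The groups did not overlap in CPM, the counts scaled by library size, higher in mutant corneas, for 6 of the 10 genes, as for 17.3% of all genes tested, and lower for 1, as for 16.4% (33.7% in either direction). The 6 were the 4 genes that rose, *Ripk1* and *Birc3*.

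**Figure D1:**
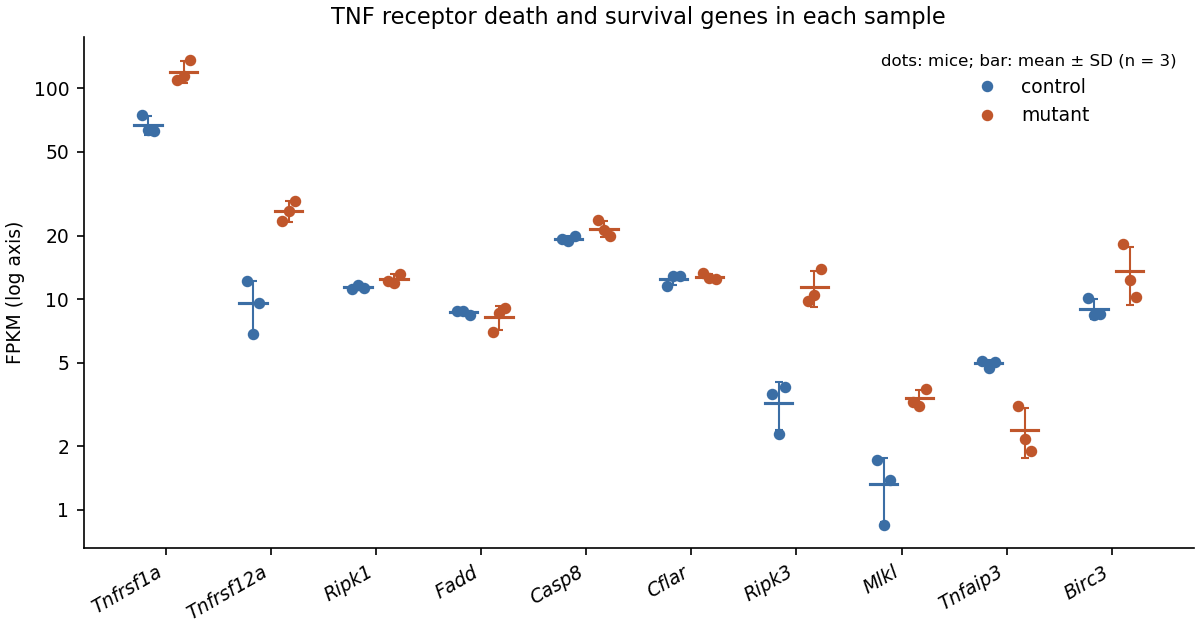
FPKM of the 10 genes (log axis) in each control and mutant sample, with each dot a mouse and the bar and whiskers the mean ± SD of 3 mice. *Tnfrsf1a* was the most abundant in both groups, and the dots of *Tnfrsf1a*, *Tnfrsf12a*, *Ripk3* and *Mlkl* lie higher and those of *Tnfaip3* lower in mutant corneas with no overlap.

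The gene with the largest change, *Ripk3*, is on chromosome 14 of GRCm38 from 55784995 to 55788857 and encodes the kinase that starts necroptosis. Its FPKM was 3.55, 2.29 and 3.82 in control corneas against 9.84, 10.5 and 13.9 in mutant corneas. Each mutant sample was above each control sample, and the gap between the groups was wider than the range within either group. The mean rose from 3.22 ± 0.82 to 11.4 ± 2.2 (SD, n = 3 each), and edgeR gave a 3.53-fold rise, that is, a log2 fold change of 1.82 (standard error 0.198, 95% interval 1.38 to 2.26, adjusted p = 0.00042). The counts behind these values were 84 to 141 in control and 361 to 519 in mutant corneas.

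*Mlkl*, on chromosome 8 from 111311681 to 111338456, encodes the pseudokinase that RIPK3 phosphorylates. Its FPKM was 1.73, 0.85 and 1.38 in control corneas against 3.25, 3.12 and 3.76 in mutant corneas, the lowest level of the 10 genes in control corneas. The groups did not overlap, and the mutant samples varied less among themselves than the control samples did. *Mlkl* rose 2.56-fold (log2 fold change 1.36, standard error 0.223, adjusted p = 0.0040), on 33 to 64 counts in control and 120 to 144 in mutant corneas. Thus the last 2 steps of necroptosis both had more transcript in mutant corneas, and for both the control sample 2 was the lowest. Transcript levels do not show phosphorylation of MLKL or cell death, which these data did not measure.

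Among the receptors, *Tnfrsf1a*, on chromosome 6 from 125349723 to 125362483, was present at an FPKM of 74.8, 63.4 and 62.5 in control corneas against 109, 115 and 136 in mutant corneas. It is the death domain receptor through which soluble TNF acts on most cells, and no control value reached a mutant value. The rise was 1.79-fold (log2 fold change 0.84, standard error 0.0991, adjusted p = 0.00066), and with 2631 to 5788 counts per sample it was the most deeply covered of the 10 genes. *Tnfrsf12a*, on chromosome 17 from 23675445 to 23677449, encodes the receptor of the cytokine TWEAK (*Tnfsf12*), a receptor that has no death domain and is known to be induced by growth factors and tissue injury. Its FPKM was 12.2, 6.86 and 9.59 in control corneas against 23.4, 26.1 and 29.3 in mutant corneas, again without overlap. *Tnfrsf12a* rose 2.77-fold (log2 fold change 1.47, standard error 0.179, adjusted p = 0.00079).

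The adaptors and the caspase arm showed no difference that passed the test. *Ripk1*, the kinase shared by the survival and death complexes, on chromosome 13 from 34002186 to 34074074, was present at an FPKM of 11.1, 11.7 and 11.3 in control corneas against 12.2, 11.9 and 13.2 in mutant corneas. These FPKM values did not overlap but the counts did (796 to 827 against 819 to 905), and the log2 fold change was 0.06 with a 95% interval of -0.10 to 0.21 (adjusted p = 0.65). *Fadd*, the adaptor that brings caspase-8 to death receptors, on chromosome 7 from 144567355 to 144582436, was present at an FPKM of 8.82, 8.76 and 8.40 in control corneas against 6.99, 8.62 and 9.06 in mutant corneas. The mutant samples 2 and 3 lay within or above the control range and the mutant sample 1 below it, with a log2 fold change of -0.08 (95% interval -0.31 to 0.15, adjusted p = 0.66). *Casp8*, the initiator caspase that both starts apoptosis and holds necroptosis in check, had an FPKM of 19.3, 18.8 and 19.97 in control corneas against 23.6, 21.2 and 19.8 in mutant corneas. The mutant sample 3 lay within the control range, and the log2 fold change was 0.14 (95% interval -0.05 to 0.34, adjusted p = 0.33). *Cflar*, whose protein resembles caspase-8 without its activity, had an FPKM of 11.5, 12.8 and 12.9 in control corneas against 13.2, 12.6 and 12.5 in mutant corneas, so that the groups overlapped. Its log2 fold change was 0.03 (95% interval -0.15 to 0.20, adjusted p = 0.87). The intervals of these 4 genes leave room for changes of up to 0.34 on the log2 scale upward and 0.31 downward. *Cflar* and *Casp8* are neighbors on chromosome 1, from 58711238 to 58759209 and from 58795228 to 58847503, with 36018 bases between them in the table's coordinates.

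**Figure D2:**
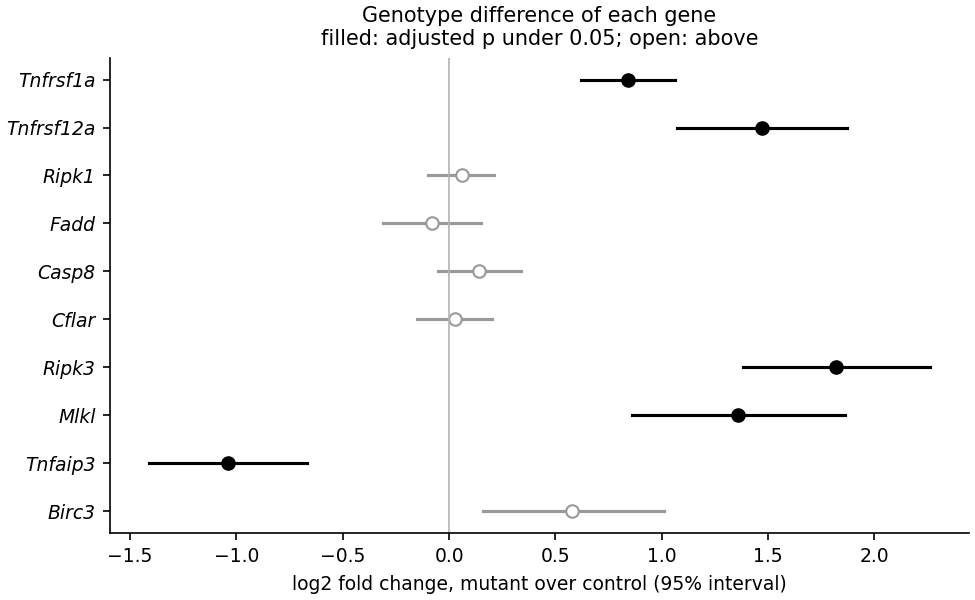
Log2 fold change of each of the 10 genes, mutant over control, from edgeR's quasi-likelihood test, with lines for the 95% interval and filled symbols for an adjusted p under 0.05. *Ripk3* is farthest to the right at 1.82 and *Tnfaip3* farthest to the left at -1.04, while *Ripk1*, *Fadd*, *Casp8* and *Cflar* lie between -0.08 and 0.14 with intervals across 0.

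Of the 3 NF-κB target genes in this group, *Tnfaip3* fell, *Birc3* had higher values that did not pass the test, and *Cflar* is described above. *Tnfaip3*, on chromosome 10 from 19000910 to 19015410, was present at an FPKM of 5.10, 4.72 and 5.05 in control corneas against 3.12, 2.17 and 1.91 in mutant corneas. The control samples lay close together and every mutant sample was below them, the mutant sample 1 being the nearest. The mean went from 4.96 ± 0.21 to 2.40 ± 0.64 (SD, n = 3 each), and *Tnfaip3* fell by 1.04 on the log2 scale (standard error 0.166, 95% interval -1.41 to -0.67, adjusted p = 0.0034). *Birc3*, which encodes the ubiquitin ligase cIAP2 and lies on chromosome 9 from 7848699 to 7873210, was present at an FPKM of 10.15, 8.36 and 8.49 in control corneas against 18.2, 12.3 and 10.19 in mutant corneas. The mutant values spread from just above the highest control value to well above it, with the mutant sample 1 the highest. Its log2 fold change was 0.58 (standard error 0.188, 95% interval 0.16 to 1.01), with an unadjusted p of 0.012 and an adjusted p of 0.072 in edgeR. The call of *Birc3* depended on the analysis, with an adjusted p of 0.016 in DESeq2 and of 0.015 in edgeR without the mutant sample 3, where the log2 fold change was 0.76. Without the mutant sample 1 it was 0.31 (adjusted p = 0.10).

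The promoter windows of the 10 genes were searched for κB strings because *Rela* encodes a DNA-binding subunit of NF-κB. The windows of *Tnfaip3*, *Ripk3* and *Mlkl* are printed, a choice made after their changes were seen. RefSeq windows of GRCm38.p6, each 250 bases before to 50 bases after a start site, were found for all 10 genes, 12 windows in all. The 10-base κB consensus was searched on both strands, and so was a narrower κB string, GGG and TTCC with any 3 bases between, which can overlap it. The consensus occurred in 8.46% of all 32851 promoter windows and in 1 of these 12, about the same share. The narrower string occurred in 5.56% of all windows and in 2 of these 12. Among the 10 genes, the consensus occurred only in the first window of *Tnfaip3*, from 125 to 116 and from 12 to 3 bases upstream of the start site, and the narrower string occurred at the match nearest the start site, once downstream of that start site and once in the second *Tnfaip3* window. The AP-1 string TGANTCA, found in 7.81% of all windows, occurred once, 136 to 130 bases upstream in the same *Tnfaip3* window. No κB match in these letters occurred in the windows of *Ripk3* and *Mlkl*. Nor did one occur in those of the other 7 genes, the NF-κB target genes *Birc3* and *Cflar* among them, which says nothing of sites elsewhere. The windows of *Casp8*, *Cflar* and *Mlkl* lie within the gene spans given here, so bases before those spans were not searched. A match is a string in the sequence. Binding to it, and any part of it in the changes of these genes, was not tested. The 3 windows follow, 5′ to 3′ on the gene's strand (minus for each), with matches to either κB string in capitals.
Tnfaip3 chr10:19015361-19015660: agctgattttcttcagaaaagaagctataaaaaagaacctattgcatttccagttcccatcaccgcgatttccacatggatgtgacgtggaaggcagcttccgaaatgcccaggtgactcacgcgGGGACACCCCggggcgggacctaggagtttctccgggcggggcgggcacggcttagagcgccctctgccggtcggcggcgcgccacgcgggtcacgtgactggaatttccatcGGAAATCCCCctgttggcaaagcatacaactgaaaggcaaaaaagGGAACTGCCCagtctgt
Ripk3 chr14:55788808-55789107: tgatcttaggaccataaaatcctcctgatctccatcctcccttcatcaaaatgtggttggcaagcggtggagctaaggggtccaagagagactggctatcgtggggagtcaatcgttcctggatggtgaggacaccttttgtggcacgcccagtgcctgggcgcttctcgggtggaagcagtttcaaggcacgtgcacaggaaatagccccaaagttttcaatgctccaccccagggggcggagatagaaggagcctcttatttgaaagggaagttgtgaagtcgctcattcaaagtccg
Mlkl chr8:111338156-111338455: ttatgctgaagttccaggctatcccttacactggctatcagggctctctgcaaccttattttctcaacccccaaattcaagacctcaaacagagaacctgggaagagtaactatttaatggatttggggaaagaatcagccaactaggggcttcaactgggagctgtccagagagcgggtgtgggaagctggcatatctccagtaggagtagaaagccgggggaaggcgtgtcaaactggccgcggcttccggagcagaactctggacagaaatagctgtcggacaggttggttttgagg

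The order of the 10 genes by FPKM, a level scaled for transcript length, differed between the groups mainly through the genes that passed the test. In the control samples *Tnfrsf1a* was highest (mean FPKM 66.9), followed by *Casp8* (19.3), *Cflar* (12.4), *Ripk1* (11.4), *Tnfrsf12a* (9.55), *Birc3* (9.0), *Fadd* (8.66), *Tnfaip3* (4.96), *Ripk3* (3.22) and *Mlkl* (1.32). The ranges of neighbors overlapped from *Cflar* down to *Fadd* and were apart elsewhere in this order. In the mutant samples *Tnfrsf12a* stood second (26.3), with a range that overlapped that of *Casp8*, *Ripk3* (11.4) had a range that overlapped that of *Ripk1*, and *Tnfaip3* was last (2.40), with a range that overlapped that of *Mlkl* (3.38). Within the mutant group, the mutant sample 3 had the highest FPKM of 6 of the 10 genes, *Ripk3*, *Mlkl*, *Tnfrsf1a* and *Tnfrsf12a* among them, and the mutant sample 1 that of the other 4, *Tnfaip3* and *Birc3* among them.

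For pairs of related genes, the ratio of FPKM was taken within each sample. Such a ratio follows from the changes of its genes and does not measure a balance of proteins. The ratio of *Ripk3* to *Casp8* was 0.184, 0.122 and 0.191 in control corneas against 0.417, 0.495 and 0.703 in mutant corneas, a difference of 1.69 on the log2 scale. All mutant ratios were above all control ratios, with *Casp8* still the more abundant of the pair in every sample. The ratio of *Cflar* to *Casp8* was 0.598, 0.681 and 0.646 in control corneas against 0.561, 0.595 and 0.630 in mutant corneas, which overlap. The ratio of *Birc3* to its paralog *Birc2* was 1.01, 0.709 and 0.778 in control corneas against 1.81, 1.32 and 1.12 in mutant corneas, and for *Birc2* itself the log2 fold change was -0.20 (adjusted p = 0.17). The exact two-sided permutation p was 0.1 for *Ripk3* to *Casp8* and for *Birc3* to *Birc2*, the smallest that 3 against 3 samples can give, and 0.2 for *Cflar* to *Casp8* (0.133 and 0.2 after Benjamini-Hochberg adjustment over 4 ratios). The last of the 4 ratios, of *Tnfrsf1a* to *Tnfrsf1b*, rests on 1 to 5 counts of *Tnfrsf1b* in a control sample and 10 to 33 in a mutant sample and is not read further.

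**Figure D3:**
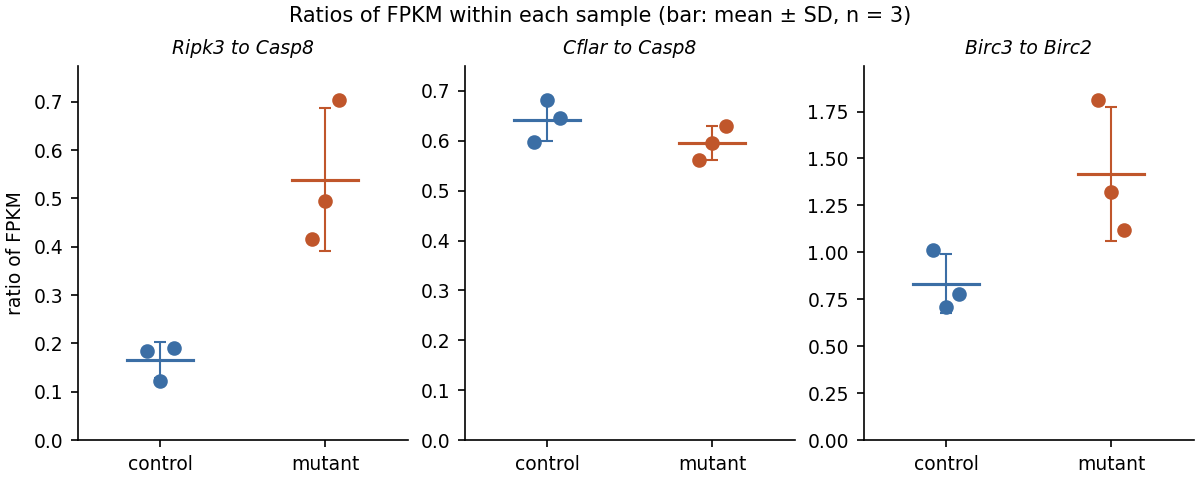
Ratio of FPKM within each sample for 3 gene pairs (linear axes from 0), with each dot a mouse and the bar and whiskers the mean ± SD of 3 mice. The mutant ratios of *Ripk3* to *Casp8* (0.417 to 0.703) all lie above the control ratios (0.122 to 0.191), and those of *Cflar* to *Casp8* overlap.

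The other genes of the pathway were described with 5 lists that hold 92 genes in all, of which 73 were tested and 22 passed, 15 higher and 7 lower. This is 30.1% of the genes tested, against 13.2% of all genes tested, and the lists share some genes. The lists were chosen with earlier results of these data known, so the difference between these shares is not a test of the pathway. Of the 10 ligand genes 4 were tested, 2 fell and 0 rose, with a median log2 fold change of -1.05. At an unadjusted p under 0.05 in edgeR 0 were higher, and in DESeq2, which also tested *Tnfsf9*, that gene alone was called higher. *Tnfsf9* had 0 counts in each control sample and 39, 4 and 26 in the mutant samples. The other ligand genes too low for the main test overlapped between the groups. *Tnf*, which encodes the ligand of TNFR1, had an FPKM of 7.24, 6.62 and 6.20 in control corneas against 3.0, 2.27 and 0.77 in mutant corneas. Every mutant sample was below every control sample, and *Tnf* fell by 1.73 on the log2 scale (standard error 0.343, adjusted p = 0.010). It thus moved opposite to its receptor *Tnfrsf1a* in the same samples. *Ltb*, the lymphotoxin subunit, fell by 1.72 on the log2 scale on 22 to 30 counts in control and 4 to 15 in mutant corneas (adjusted p = 0.033), a call that held in 1 of 6 analyses with a sample left out. *Tnfsf12*, the ligand of *Tnfrsf12a*, had a log2 fold change of 0.76 that did not pass (adjusted p = 0.20), and *Fasl* had at most 1 count in any sample.

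Of the 18 other TNF receptor genes 11 were tested, 4 rose and 0 fell, with a median log2 fold change of 0.52. At an unadjusted p under 0.05 in edgeR 1 was lower, and DESeq2 called 0 lower. The list does not hold every receptor of the family: *Tnfrsf22*, *Tnfrsf23* and *Tnfrsf26* were tested outside it. Only *Tnfrsf23* is described, named after its values were seen, and it does not stand for *Tnfrsf22* and *Tnfrsf26*. *Tnfrsf23* rose from a mean CPM of 1.74 to 9.20 (log2 fold change 2.40, adjusted p = 2.2e-05 in edgeR). *Tnfrsf21*, a death domain receptor, rose 1.60-fold, from a mean FPKM of 29.7 to 47.5 (adjusted p = 0.0024). *Tnfrsf18* rose 1.94-fold from a low level (FPKM 1.12 to 1.23 in control and 2.21 to 2.59 in mutant corneas, adjusted p = 0.014), *Tnfrsf4* rose 2.02-fold (adjusted p = 0.039) and *Ltbr*, the lymphotoxin receptor, rose 1.25-fold (adjusted p = 0.031). Of these 4, *Tnfrsf21* passed in each of the 14 alternative analyses, and *Tnfrsf18*, *Ltbr* and *Tnfrsf4* in 12, 9 and 7. The receptor of Fas ligand, *Fas*, had a log2 fold change of 1.26 that did not pass (adjusted p = 0.076).

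Of the 27 genes of the receptor complex and its ubiquitin enzymes 26 were tested, 1 rose, 1 fell and 24 did not pass, with a median log2 fold change of 0.02. *Tnip2*, whose product binds A20 and restrains NF-κB, rose 1.46-fold (adjusted p = 0.0027), and *Traf5*, an adaptor, fell by 0.41 on the log2 scale (adjusted p = 0.030, past in 10 of 14 alternatives). The 3 subunit genes of the linear ubiquitin ligase, *Rnf31*, *Rbck1* and *Sharpin*, did not pass, nor did *Traf2*, *Tradd* or *Birc2*. Of the 17 caspase and necroptosis genes, all tested, 3 rose and 2 fell. *Zbp1*, a nucleic acid sensor whose product recruits RIPK3, rose 2.12-fold (adjusted p = 0.036, not past in 4 of 6 analyses with a sample left out), and *Casp8ap2* rose 1.27-fold (adjusted p = 0.043, not past in 5 of them). *Casp12* had 0 to 3 counts in control and 16 to 77 in mutant corneas (adjusted p = 0.0058). *Ripk2*, the kinase of NOD receptors, had an FPKM of 9.12 to 9.88 in control and 6.25 to 6.30 in mutant corneas and fell by 0.55 on the log2 scale (adjusted p = 0.0031). *Casp9*, the initiator of the mitochondrial pathway, fell by 0.37 (adjusted p = 0.0096).

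**Figure D4:**
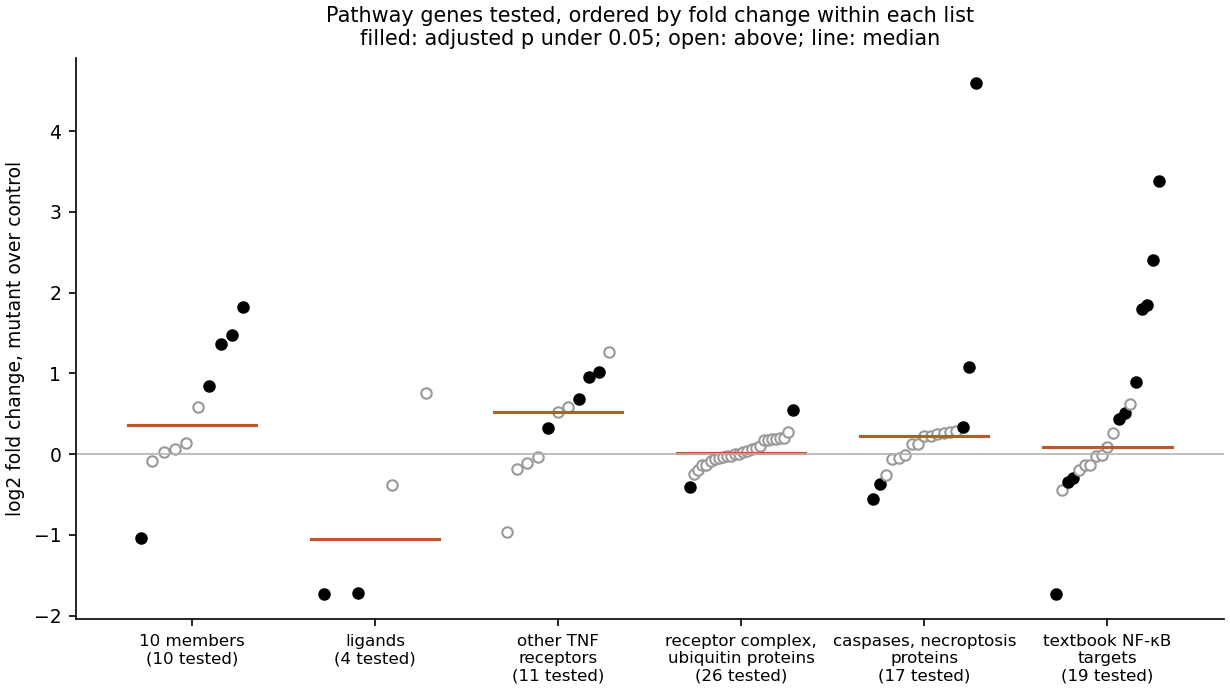
Log2 fold change, mutant over control, of each gene tested among the 10 genes and in 5 lists of pathway genes, ordered within each list, with filled symbols for an adjusted p under 0.05 and a line at the median. The line lies at 0.36 for the 10 genes, at -1.05 for the ligands and at 0.02 for the receptor complex and ubiquitin proteins.

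Of the 25 textbook NF-κB target genes 23 were in the table and 19 were tested, 7 rose and 3 fell, with a median log2 fold change of 0.09. The 3 that fell with *Tnfaip3* were *Tnf*, *Nfkbia* (a log2 fold change of -0.34 with an adjusted p of 0.028) and *Sod2* (-0.29 with an adjusted p of 0.022), of which *Tnf* passed in each of 14 alternative analyses, *Nfkbia* in 10 and *Sod2* in 8. Genes of the same list that rose were *Bcl3*, a nuclear IκB protein, 3.62-fold (mean FPKM 16.0 ± 2.9 and 58.1 ± 10.4, SD, n = 3 each, adjusted p = 7.6e-05), *Ier3* 1.85-fold (adjusted p = 0.0017) and *Rel*, another NF-κB subunit, 1.42-fold (adjusted p = 0.0089). Those 3 passed in each of the 14 alternative analyses. The rise of *Nfkb1* was past the threshold in 11 of 14, and those of *Cxcl1*, *Il1b* and *Icam1* in 10, 9 and 7 of the 13 that tested them. These last genes had few counts. *Cxcl1* had 3 to 6 in control and 14 to 20 in mutant corneas, *Il1b* 3 to 7 and 14 to 110, and *Icam1* 0 to 11 and 15 to 37.

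Markers of other cell types were read beside these results. Of the 15 leukocyte markers 4 rose, *S100a8*, *S100a9*, *Cd14* and *Laptm5*, the first 2 of which stressed keratinocytes also express, and 8 were too low to be tested. *Cd14* and *Laptm5* passed in 0 of 6 analyses with a sample left out (edgeR), and *S100a8* and *S100a9* in all 6. The defining leukocyte gene *Ptprc* (CD45) had 1 to 6 counts in control and 2 to 14 in mutant corneas, *Adgre1* had 3 or fewer in every sample, and *Cd3e* had an FPKM of at most 0.18. The summed FPKM of the list was 86.7 to 98.0 in control corneas against 310 to 1790 in mutant corneas, and it was 83.2 to 91.2 and 76.4 to 125 without *S100a8* and *S100a9*. Most of that remainder was *Itgam* and *Cd68*, which did not pass, and without these as well the sum was 2.64, 2.08 and 2.18 in control corneas against 5.59, 3.72 and 3.36 in mutant corneas, with no overlap. *Lyz2* had 0 to 1 counts in control and 4 to 24 in mutant corneas, also without overlap. *S100a8* was highest in the mutant sample 1 (FPKM 264, against 49.4 and 32.0 in the mutant samples 2 and 3). Without the mutant sample 1, *Ripk3* had a log2 fold change of 1.91, *Mlkl* of 1.37 and *Tnfaip3* of -1.28, and all 3 passed. The mutant samples 2 and 3, which stay in that fit, were also above every control sample in *S100a8* and *Lyz2*. They were above them too in the sum without *S100a8*, *S100a9*, *Itgam* and *Cd68*. That fit thus does not separate these genes from the markers. Of the 9 keratocyte and fibroblast markers 3 were tested, *Dcn* rose (1 to 3 counts in control and 14 to 66 in mutant corneas) and *Pdgfra* fell. The summed FPKM of the 9 was 2.58 to 2.93 in control and 2.05 to 5.0 in mutant corneas, and in control corneas *Pdgfra* made up most of it, at 2.07 to 2.50. The collagen genes, too low to be tested, were higher in each mutant sample than in any control sample for *Col1a1* (1 to 2 against 6 to 23 counts) and *Col3a1* (0 to 1 against 6 to 32), and overlapped for *Col1a2*, while *Kera* had 2 or fewer counts in every sample. Of the conjunctival markers *Krt13* fell by 0.45 on the log2 scale (adjusted p = 0.015). *Krt4* was also lower in every mutant sample, with a log2 fold change of -1.01 that did not pass (edgeR, unadjusted p = 0.017, adjusted p = 0.091). *Krt19*, *Krt7* and *Spdef* overlapped between the groups. Neither the 1 endothelial marker (*Vwf*) nor the 2 epidermal markers (*Krt1* and *Krt10*) that were tested passed, with 0 of the 3 at an unadjusted p under 0.05 in edgeR. The endothelial markers summed to an FPKM of 0.11 to 0.19 in control and 0.20 to 0.30 in mutant corneas, without overlap, and *Pecam1* had 2 to 5 and 7 to 14 counts. The goblet cell gene *Muc5ac* had 3 or fewer counts in every sample, and no marker was at 0 in every sample. The part of these cells in the results was not tested.

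Reads shared with other genes were small for the genes that passed. Of the 50-base windows in GENCODE transcripts of *Ripk3*, *Mlkl*, *Tnfrsf1a*, *Tnfrsf12a*, *Tnfaip3* and *Tnf*, 0% occurred in transcripts of another gene, and 0% of their exon bases overlapped another gene. For the genes that did not pass, the share of such windows was 7.87% in *Ripk1*, 4.37% in *Casp8*, 7.36% in *Cflar*, 6.95% in *Fadd* and 7.56% in *Birc3*, the last in part with *Birc2*. Exons of *Ripk1* overlap those of *Serpinb6a* and *Gm17084* over 9.01% of bases, and exons of *Fadd* those of *Faddos* over 6.12%. Their expected counts divide such reads among genes and are uncertain to that extent. The expected counts of *Tnfrsf12a* were also not whole in the control samples (226.24, 126.08 and 172.32) and the mutant sample 3 (546.53). That of *Mlkl* was not whole in the control sample 1 (64.03). Some reads of these genes may thus have been divided too, which the matches of 50 bases did not show.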

How the data were processed

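Corneal epithelial RNA of 3 control and 3 mutant mice was sequenced, according to the study's methods after rRNA removal, as single-end reads of 50 bases. The authors aligned the reads with Bowtie2 2.2.5 and deposited RSEM 1.2.12 expected counts of each gene in each sample, neither normalized nor pooled (versions from the submitters' processing notes). FPKM per gene and sample, deposited by the authors beside the counts, is scaled for the length of the transcript and the total of the sample. The labels name mm9, but the chromosome accessions in the table are those of GRCm38, so coordinates are given in GRCm38. The authors' group means and their DEGseq fold changes, p-values and q-values were not used. All per-sample columns were used, and 1 symbol is shared by 2 rows.

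Expected counts were rounded and fitted in edgeR 4.0.16 (R 4.3.3) with TMM scaling, filterByExpr (minimum count 10, minimum total 15) and a quasi-likelihood test of genotype. P-values were adjusted by Benjamini-Hochberg over the 12667 genes tested. Standard errors were obtained by dividing the absolute log2 fold change by the square root of F. FPKM was used for levels and for ratios within a sample, compared by exact permutation tests. Total counts were 19492942 to 19733834 per sample, and a gene with few counts, such as *Mlkl*, has the wider interval. The study's methods describe the samples as biologically independent, and the edgeR p-values set the genotype difference against the variation between them.

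The alternatives were DESeq2 1.42.0, other scalings and filters, limma 3.58.1 on log2(FPKM + 1) and log2(FPKM + 0.1), a replicate block and each sample left out. The script was tested on simulated data. The genes and lists were chosen with earlier results of these data known. Outside the 10 genes, the rule named up to 4 genes per pathway list with the smallest adjusted p under 0.05, *Birc2* and *Tnfrsf1b*, and for each marker list the most abundant gene and those that passed. Other genes are named because a count or a ligand-receptor pair concerned them, after their values were seen.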

Additional observations from a re-analysis of the deposited data

How the results depend on the processing

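*Ripk3*, *Mlkl*, *Tnfrsf1a*, *Tnfrsf12a* and *Tnfaip3* kept their direction and an adjusted p under 0.05 in each of the 14 alternatives, with log2 fold changes of 1.56 to 1.98, 0.93 to 1.55, 0.75 to 0.92, 1.28 to 1.68 and -1.28 to -0.82. *Birc3* passed in 3 of them (log2 fold changes of 0.58 in DESeq2, 0.55 with the replicate block, where the adjusted p was 0.028, and 0.76 without the mutant sample 3). The sign turned for *Cflar* without the control sample 1 (-0.03) and without the mutant sample 1 (-0.01), and for *Fadd* without the mutant sample 1 (0.02), within ranges of -0.03 to 0.06 and -0.14 to 0.02 over the samples left out. Of the 10 genes, 2 met the study's thresholds, against 4 with DESeq2 and 1 each with limma at a pseudocount of 1, limma at 0.1 and the replicate block. Of all genes, 173 met them, against 342 with DESeq2 and 114 with limma at a pseudocount of 1. Of the ligands, 1 was higher with DESeq2 and 1 without a filter, against 0, and 1 was lower with at least 10 counts in every sample, against 2. Caspase and necroptosis genes that rose were 1 with limma at a pseudocount of 1, against 3. NF-κB targets that fell were 1 with the replicate block, against 3.

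With each sample left out in turn, 4 to 5 of the 10 genes rose, 1 fell and 0 to 3 met the study's thresholds. Among all genes 857 to 1869 passed and 36 to 193 met those thresholds. The counts that rose and fell were 0 to 1 and 1 to 2 for ligands, 1 to 4 and 0 to 1 for receptors, 1 and 0 to 2 for the receptor complex, 1 to 3 and 2 to 3 for caspase and necroptosis genes, and 3 to 7 and 1 to 3 for NF-κB targets. Leaving out a sample leaves 2 in its group, and the cause of the other changes was not tested. Same-numbered samples had correlations of deviations of 0.019, 0.0483 and -0.0464, and the control sample 3 correlated best with the mutant sample 1, so the replicate numbers were not read as pairs. Depth limits genes such as *Mlkl*, *Ltb* and *Casp12*, whose counts fell to 33, 4 and 0 in a sample.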
